A study of Mus musculus with 20 samples.

Results

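The comparison described here was that of heart ventricle from estradiol-treated with ventricle from placebo-treated mice, 10 of the 20 arrays of the series. Samples were taken by their titles: the 5 titled E2 formed the estradiol group (replicates 29, 30, 33, 34 and 35) and the 5 titled OVX formed the placebo group (replicates 31, 32, 33, 34 and 36). All mice were female C57BL/6 animals that had been ovariectomized at 8 weeks of age, so the placebo group lacked ovarian hormones as well. An implanted osmotic minipump then delivered 17β-estradiol as a cyclodextrin complex, or placebo, for 4 weeks. The dose and the number of animals behind a sample are not given in the labels used here, and replicate numbers name samples only. The p-values therefore measure the spread between these samples, which may in part be technical. The other 10 arrays held 5 samples treated with 16α-LE2, described as an agonist of estrogen receptor α, and 5 samples titled beta whose treatment label is a control solution. They served here to estimate the spread and for a few comparisons at the end.

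RNA of each sample was hybridized to 1 Affymetrix mouse array, and each value is a log2 level of a probe set, so that a difference of 1 is a factor of 2. Each gene was read from the probe set of highest mean among those that name exactly 1 gene. Of 18193 genes, 12082 had a mean level above 6.931, the median of all probe sets, and were tested. The genes that define heart muscle were present, as all 10 of the listed cardiomyocyte markers passed this filter. Estradiol replicate 33 stood apart. Over the tested genes its Spearman correlation with each of the other 9 arrays was 0.882 to 0.910, whereas those 9 arrays correlated with each other at 0.961 to 0.992. It held the lowest or the highest of the 10 values in 69.5% of genes, 5978 times the lowest and 2420 times the highest, against 7.16% to 30% for any other array. The 3′ minus 5′ difference of its control probe sets was 0.03 for Gapdh and -0.00 for Actb, within the range of the other 9 arrays (-0.02 to 0.17 and -0.05 to 0.22). Results are therefore given with and without this array.

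Estrogens act mainly through 2 nuclear receptors, α and β, which are transcription factors that are switched on by the hormone. A receptor dimer binds the estrogen response element, a palindrome in DNA, or is held at promoters by other factors such as AP-1. A membrane receptor, encoded by Gper1, acts through second messengers. In the heart, estrogens are known for effects on growth of the muscle, on vessels and on the choice between glucose and fatty acids as fuel, and the theme of the series is glucose uptake.

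No gene passed the threshold between estradiol and placebo. With limma fitted over all 20 arrays and Benjamini-Hochberg adjustment over the 12082 genes, 0 genes had an adjusted p under 0.05, which is 0% of those tested, and the smallest adjusted p was 0.275. Without adjustment, limma gave p under 0.05 for 289 genes above placebo (2.39%) and 874 below placebo (7.23%). Differences were small. Only Hspa1b had a point difference beyond 1 in either direction, and the 95% interval of 12038 genes (99.6%) lay within -1 and 1, with a median half-width of 0.21. These intervals are not widened for the number of genes.

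The excess of genes below placebo before adjustment came with estradiol replicate 33. Without that array 313 genes lay above (2.59%) and 285 below (2.36%) placebo at an unadjusted limma p under 0.05, 598 in all or 4.95% of genes tested, and 391 genes were in both sets. No gene was called, and the smallest adjusted p in limma was 0.759. The median difference of all genes was -0.028 with and -0.002 without it. Quantile normalization of all arrays also evened the split, with 490 genes above and 610 below, 44.5% above against 24.8% on the deposited scale. Counted whatever their p, 5178 of all tested genes lay above and 6904 below placebo. Without estradiol replicate 33 these counts were 5931 and 6151, and under quantile normalization 6377 and 5703. Other arrays moved the count of 1163 genes too: it was 1866 without estradiol replicate 29, 2228 without estradiol replicate 30 and 627 without placebo replicate 33.

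**Figure D1:**
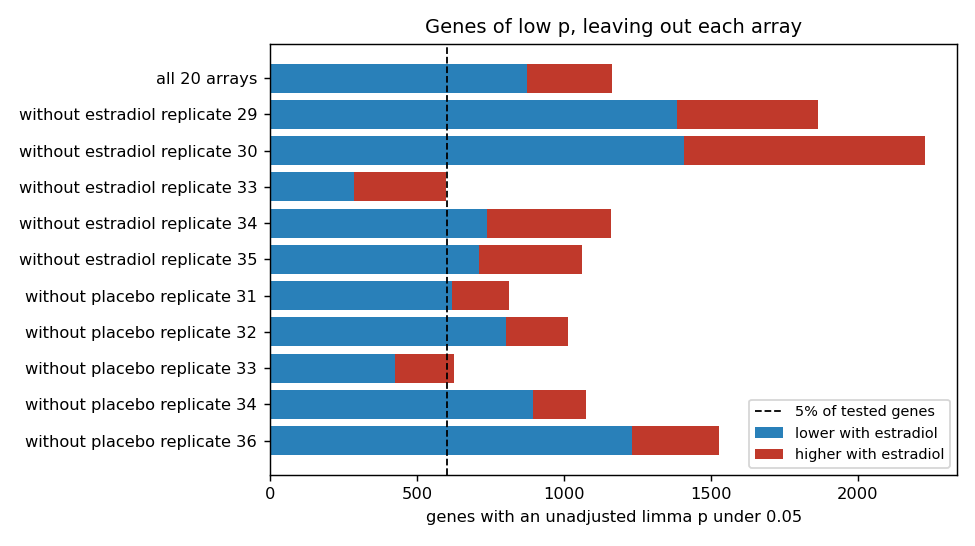
Number of tested genes with an unadjusted limma p under 0.05 (horizontal axis), below placebo in blue and above placebo in red, with all 20 arrays and after leaving out each of the 10 arrays in turn (rows). The bar without estradiol replicate 33 (598 genes) lies at the dashed line, which marks 5% of tested genes, and the bar without estradiol replicate 30 is the longest (2228 genes).

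The values of the groups did not overlap for 25 genes with all 5 estradiol arrays above all 5 placebo arrays (0.207%) and for 81 genes with all 5 below (0.67%), 106 in all. With 4 estradiol arrays, leaving out replicate 33, there were 89 such genes above (0.737%) and 91 below (0.753%). Fewer arrays overlap less easily: leaving out 1 of the other arrays gave 148 to 312 genes, among them 250 without estradiol replicate 29, 312 without 30, 214 without 34, 200 without placebo replicate 32, 220 without 34 and 270 without 36. Where the 5 beta-titled arrays were set beside placebo as a further control, only Bace2 and Ptgds lay above all 10 control arrays and only Meig1 below all 10.

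Among the genes of smallest p, 12 in each direction are described. Their limma adjusted p was 0.275 to 0.499 below placebo and 0.368 to 0.499 above, so none of them was called. Values of 9 of the 12 lower and 6 of the 12 higher genes did not overlap between the groups, which follows in part from choosing them by p. All 24 kept their direction without estradiol replicate 33, with limma adjusted p of 0.759 to 0.884.

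Tmem100 encodes a small membrane protein of endothelium that is induced by BMP9 and BMP10 through the receptor ALK1. Its levels were 8.80, 9.18, 8.74, 8.85 and 8.78 in estradiol replicates 29, 30, 33, 34 and 35, and 9.48, 9.70, 9.70, 9.64 and 9.50 in placebo replicates 31, 32, 33, 34 and 36. The highest estradiol array, replicate 30, thus stayed below the lowest placebo array. The difference of -0.73 ± 0.14 (SE; limma adjusted p = 0.275) is 1.66-fold, and it was -0.70 ± 0.15 without estradiol replicate 33. The only other probe set of Tmem100 differed by 0.09, in the opposite direction. Leaving out 16α-LE2 replicate 29, an array outside the comparison that enters only the estimate of the spread, brought the limma adjusted p of Tmem100 to 0.0492; in no other setting was any gene called at 0.05.

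Sfpq encodes a splicing factor of nuclear paraspeckles. Its estradiol levels were 8.33, 8.71, 8.24, 8.34 and 8.35, and its placebo levels 8.73, 9.10, 9.02, 9.22 and 9.24, so estradiol replicate 30 lay just below placebo replicate 31 and the others lay farther apart. The difference was -0.67 ± 0.14 (SE; limma adjusted p = 0.275), and 4 of 5 other probe sets of Sfpq had the same sign. Klf4 encodes a zinc finger factor that endothelium makes in response to flow. Its estradiol levels were 8.72, 9.22, 8.21, 8.82 and 8.83 against 9.35, 9.55, 9.58, 9.25 and 9.38 in placebo, without overlap and with replicate 33 the lowest. The difference of -0.66 ± 0.14 was -0.53 ± 0.12 without that array.

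Tmcc3, a membrane protein of the endoplasmic reticulum, ran at 10.18, 10.37, 9.82, 9.97 and 9.83 with estradiol against 10.48, 10.64, 11.07, 10.60 and 10.36 with placebo. The groups overlapped through estradiol replicate 30 and placebo replicate 36, and all 4 other probe sets of Tmcc3 gave differences of -0.50 to -0.43. Meig1, named for its expression in meiosis, ran at 7.21, 7.11, 6.47, 7.22 and 7.29 against 7.90, 7.51, 7.87, 7.33 and 7.54. Its difference of -0.57 ± 0.13 was -0.42 ± 0.10 without replicate 33, the lowest estradiol array, and the groups did not overlap. Slc38a2, a transporter of neutral amino acids, ran at 11.23, 11.28, 10.71, 10.92 and 10.82 against 11.40, 11.44, 11.79, 11.84 and 11.56, again without overlap.

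The other lower genes of this set were Palmd (palmdelphin; difference -0.53), Mpp7 (a scaffold of cell junctions; -0.49), Atp13a3 (a transporting ATPase of the P5 family; -0.45), Adamts9 (a secreted metalloprotease; -0.39), Itga1 (the α1 chain of a collagen-binding integrin; -0.33) and 3110001I22Rik (-0.32). Palmd, Atp13a3, Itga1 and 3110001I22Rik did not overlap between the groups. For Itga1 the only other probe set had the opposite sign, at 0.12. Over the 12 lower genes, 18 of 22 other probe sets had the same sign.

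Above placebo, Bace2 had the smallest p. It encodes an aspartyl protease related to the β-secretase. Its levels were 7.26, 7.28, 7.45, 7.40 and 7.35 with estradiol and 7.07, 7.04, 7.11, 6.75 and 7.01 with placebo, all close to the filter at 6.931. The difference was 0.35 ± 0.08 (SE; limma adjusted p = 0.368), and all 4 other probe sets of Bace2 lay above placebo too, by 0.11 to 0.24.

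Ptgds encodes the lipocalin-type prostaglandin D synthase, which makes prostaglandin D from prostaglandin H and is known as an estrogen-responsive gene of the heart. Its estradiol levels were 13.51, 13.21, 13.23, 13.36 and 13.48, and its placebo levels 13.13, 13.15, 12.51, 12.96 and 12.58. All estradiol arrays lay above all placebo arrays, and replicate 33 lay among the others. The difference was 0.49 ± 0.13 (SE; limma adjusted p = 0.499), or 1.41-fold, and 0.52 ± 0.14 without replicate 33; the other probe set of Ptgds differed by 0.60. Ltc4s, the leukotriene C synthase, which acts on another branch of eicosanoid synthesis, lay 0.41 ± 0.12 above placebo with overlapping values.

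Glutathione transferases of the mu class were among the higher genes. Gstm1 ran at 11.18, 11.77, 11.49, 12.13 and 11.59 with estradiol against 11.02, 11.46, 10.66, 11.16 and 11.07, a difference of 0.56 ± 0.18 (1.47-fold) with overlap, and all 3 of its other probe sets agreed in sign. Gstm3 ran at 8.40, 8.32, 8.72, 8.51 and 8.40 against 8.26, 8.24, 8.18, 8.12 and 8.28, a difference of 0.25 ± 0.08 without overlap. These genes are close paralogs, so their probe sets may share signal.

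The remaining higher genes were Chad (chondroadherin, a matrix protein; 0.36), Tmem107 (a protein of the ciliary transition zone; 0.36), Camk2a (a calcium and calmodulin-dependent kinase; 0.28), Mutyh (a DNA repair glycosylase; 0.25), Togaram2 (0.22), Mospd3 (0.20) and Kcnv2 (a modifier subunit of voltage-gated potassium channels; 0.19). Mutyh, Mospd3 and Kcnv2 did not overlap between the groups. Replicate 33 was the highest estradiol array for Mutyh (7.71, the others 7.31 to 7.40), Camk2a, Gstm3 and Mospd3. Over the 12 higher genes, 15 of 17 other probe sets had the same sign.

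**Figure D2:**
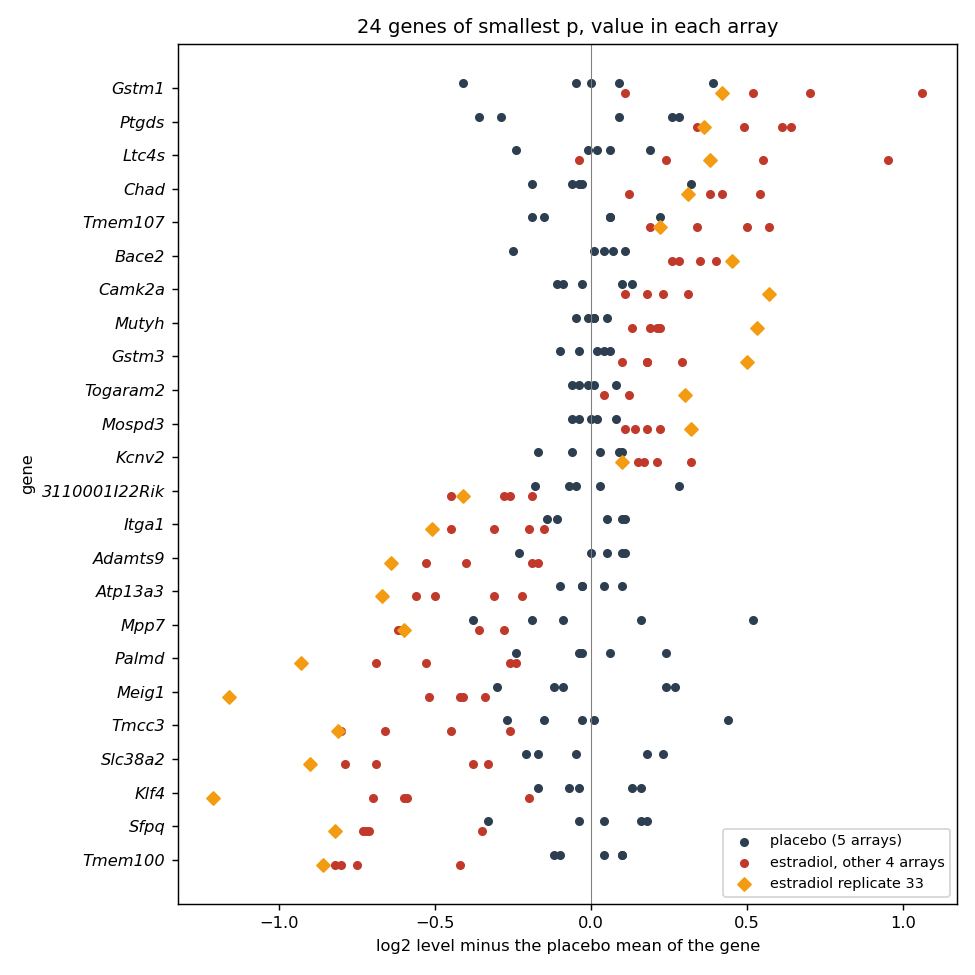
Log2 level of each array minus the placebo mean of the gene (horizontal axis) for the 12 genes of smallest p above and the 12 below placebo (rows, ordered by difference). Dark points are the 5 placebo arrays, red points 4 estradiol arrays, orange diamonds estradiol replicate 33. The diamond is the lowest estradiol value for Klf4 and Meig1 and the highest for Mutyh and Bace2, and lies among the other estradiol values for Ptgds.

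Without estradiol replicate 33, 9 of the 12 genes of smallest p (6 in each direction) were among those above. The 3 others lay above placebo. Slc2a1, described with the glucose genes, differed by 0.34 ± 0.08. Atp6v0e2, a subunit of the vacuolar proton pump, differed by 0.27 ± 0.06, with 7.91, 7.94, 8.12 and 8.03 in the 4 estradiol arrays, 7.71 in replicate 33, and 7.70, 7.83, 7.79, 7.66 and 7.68 in placebo. Adamts3, a procollagen protease, differed by 0.23 ± 0.06. Their limma adjusted p was 0.759 to 0.793.

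Promoter windows were searched for the letters of known sites, since the estrogen receptors act through some of them. A window was the 250 bases before a gene's start in RefSeq (GRCm38.p6), both strands were read, and 8 of the 12 higher and 7 of the 12 lower leading genes had a window. The estrogen response element, read as GGTCA and TGACC with 3 bases between them, occurred in 21 of 32851 windows (0.0639%) and in none of the 9732 tested genes with a window. The AP-1 site, TGANTCA, occurred in 5.8% of tested genes, and among the leading genes in Ptgds and Tmcc3. The cAMP response element (TGAC joined to GTCA, 2.85% of tested genes), the glucocorticoid response element (GNACA and TGTNC with 3 bases between them, 0.36%) and the CArG box (1.45%) were in none of the leading genes with a window, and the first of these was in 3 of 20 immediate early genes (Btg2, Dusp1 and Maff). These windows are shown because they belong to the leading genes that hold any of the searched sites, and that of Tra2b, a splicing factor described with its group, because it holds the heat shock element, read as TTC, GAA and TTC with 2 bases between each, or its complement, found in 0.483% of tested genes and in 2 of 16 heat shock chaperones (Hspd1 and Hspe1). Capitals mark the match. The Ptgds window is chr2:25469750-25469999 on the minus strand, with the match starting 35 bases before the gene's start. The Tmcc3 window is chr10:94550670-94550919 on the plus strand (15 bases before), and the Tra2b window is chr16:22266006-22266255 on the minus strand (207 bases before).
Ptgds: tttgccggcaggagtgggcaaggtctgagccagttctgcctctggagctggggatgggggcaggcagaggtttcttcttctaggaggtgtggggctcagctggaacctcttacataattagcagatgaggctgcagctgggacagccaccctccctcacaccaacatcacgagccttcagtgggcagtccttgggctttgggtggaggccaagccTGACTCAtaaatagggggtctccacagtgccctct
Tmcc3: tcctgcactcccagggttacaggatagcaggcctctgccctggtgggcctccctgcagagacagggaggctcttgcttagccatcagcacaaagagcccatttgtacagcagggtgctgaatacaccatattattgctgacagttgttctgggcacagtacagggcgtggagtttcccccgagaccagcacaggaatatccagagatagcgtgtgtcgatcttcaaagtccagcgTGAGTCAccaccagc
Tra2b: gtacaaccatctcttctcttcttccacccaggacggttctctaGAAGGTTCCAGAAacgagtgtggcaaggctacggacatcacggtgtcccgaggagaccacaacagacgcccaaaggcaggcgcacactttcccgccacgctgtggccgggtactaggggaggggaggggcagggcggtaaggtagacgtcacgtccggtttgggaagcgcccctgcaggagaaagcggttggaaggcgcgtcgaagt
A match is a run of letters only, and binding was not measured.

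The receptors themselves did not pass the expression filter. Esr1, for receptor α, ran at 6.86 to 6.93 with estradiol and 6.81 to 7.10 with placebo, Esr2 at 6.41 to 6.53 and 6.43 to 6.57, and Gper1 at 6.55 to 6.98 and 6.84 to 6.98. Their means over the arrays lay below 6.931, as did those of Pgr, the progesterone receptor (6.59 to 7.13 and 6.50 to 6.71), and Greb1 (6.76 to 6.91 and 6.72 to 6.85), textbook targets of receptor α in reproductive tissue. In the limma fit without the filter, the 95% intervals of all 5 differences included 0. Of the receptors and coregulators tested, 3 of 8 lay above and 5 below placebo, and 1 had an unadjusted p under 0.05 (all genes, 7.23% below): Pgrmc1, a heme-binding membrane protein of steroid responses, at -0.38 ± 0.16. That count was 0 without estradiol replicate 33, estradiol replicate 34 or placebo replicate 33, and with the beta-titled arrays added to the control. Of 15 tested estrogen target genes, 8 lay above and 7 below, with a median of 0.04, and Ptgds alone had an unadjusted p under 0.05 (all genes, 2.39% above).

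Genes of glucose uptake and insulin signalling gave 9 of 25 above and 16 below placebo, with a median of -0.03, and 15 above and 10 below without estradiol replicate 33. Over all tested genes the split was uneven too, with 5178 above and 6904 below, and 5931 and 6151 without that array. The splits of this and the other lists are to be read beside these counts. Slc2a1 encodes GLUT1, the carrier of basal glucose uptake. Its levels were 8.80, 8.70, 8.34, 8.91 and 8.79 with estradiol and 8.43, 8.62, 8.42, 8.31 and 8.52 with placebo, so that replicate 33 alone lay inside the placebo range. The difference of 0.25 ± 0.10 (SE; limma adjusted p = 0.499) was 0.34 ± 0.08 without that array (limma adjusted p = 0.759), and both other probe sets had the same sign. Slc2a1 was the only member with an unadjusted limma p under 0.05 (all genes, 2.39% above). No member had one without estradiol replicate 34 or without placebo replicate 34. Slc2a4 encodes GLUT4, the insulin-responsive carrier of muscle. It ran at 10.75, 10.85, 10.71, 11.28 and 11.07 against 10.83, 10.89, 10.95, 11.11 and 10.86, a difference of 0.01 with a 95% interval of -0.21 to 0.22. Its sign turned under several settings.

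Genes of fatty acid use and the pyruvate dehydrogenase kinases lay below placebo in 17 of 22 cases, with a median of -0.11 that was the same without replicate 33. The split was nearer to even under quantile normalization (13 of 22 below) and with the beta-titled arrays added to the control (12 of 22), each with a median of -0.03. At an unadjusted limma p under 0.05, 5 lay below and 0 above (all genes, 7.23% below). The count was 3 without estradiol replicate 33 (all genes, 2.36%), 34 (6.12%) or 35 (5.89%) or placebo replicate 32 (6.65%). With the beta-titled arrays added to the control it was 1 (all genes, 3.77%). Pdk4 encodes a pyruvate dehydrogenase kinase, which inhibits the pyruvate dehydrogenase complex. Its estradiol levels were 13.92, 13.85, 12.98, 12.58 and 12.58, and its placebo levels 13.88, 13.93, 13.98, 13.68 and 13.38. Replicates 29 and 30 thus lay within the placebo range and the other 3 below it, and the difference was -0.59 ± 0.20 (SE; limma adjusted p = 0.499). Ppargc1a, a coactivator of mitochondrial genes, ran at 9.93, 10.22, 9.92, 10.42 and 9.91 against 10.32, 10.73, 10.37, 10.62 and 10.39, a difference of -0.41 ± 0.12, and all 4 other probe sets had its sign. Plin5, which coats lipid droplets, differed by -0.43 ± 0.15, and by -0.28 ± 0.12 without replicate 33, whose level of 10.99 lay below the 11.66 to 11.90 of the other estradiol arrays. Ucp3 (mitochondrial uncoupling protein; -0.35) and Cd36 (fatty acid carrier; -0.23) completed the 5. Cidea, another lipid droplet protein, which was listed as an adipocyte marker, did not overlap between the groups, with 9.55 to 10.17 against 10.19 to 10.43. The 6 tested adipocyte markers gave 3 above and 3 below placebo, Cidea among them.

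Splicing factors and nuclear speckle genes lay mostly below placebo. These proteins process pre-mRNA in the nucleus. Of 26 tested, 22 lay below and 4 above, with a median of -0.21, and 11 lay below at an unadjusted limma p under 0.05 (all genes, 7.23%). Sfpq was 1 of 5 whose values did not overlap (all genes, 0.67% below). This list and the others were drawn up with earlier results of these data known. Shares above those of all genes may follow in part from that choice. Without estradiol replicate 33 the counts were 23 below and 3 above, with 7 at an unadjusted p under 0.05 (all genes, 2.36%) and a median of -0.14. Without placebo replicate 33, 7 were also counted (all genes, 3.53%). Under quantile normalization 17 lay below, 11 of them at an unadjusted p under 0.05 (all genes, 5.05%), with a median of -0.13. The SR protein genes Srsf3 (-0.45), Srsf1 (-0.35), Srsf10 (-0.48) and Srsf11 (-0.36), and Tra2a (-0.44) and Tra2b (-0.33), which are related to them, were among the 11, with Hnrnpu (a nuclear RNA-binding scaffold; -0.38), Luc7l3 (-0.54), Rbm39 (-0.42) and Pspc1 (a paraspeckle protein; -0.24). Srsf1 ran at 9.95, 10.07, 9.80, 10.24 and 9.89 with estradiol against 10.25, 10.26, 10.36, 10.41 and 10.43, with every estradiol array below every placebo array. Probe sets of these genes did not all move together. For Rbm39 4 of 11 other probe sets shared its sign and for Tra2b 1 of 4. With the mean of all probe sets of a gene, 7 members lay below at an unadjusted p under 0.05 (all genes, 813 of 12082).

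Immediate early genes, which cells transcribe within minutes of a stimulus, lay below placebo in 21 of 25 cases with a median of -0.25, and 9 of these had an unadjusted limma p under 0.05 (all genes, 7.23%). Without estradiol replicate 33, 20 lay below, 5 of them at an unadjusted p under 0.05 (all genes, 2.36%), and the median was -0.14. The count was also 5 without placebo replicate 32 (all genes, 6.65%) or 33 (3.53%). Besides Klf4, the leaders were Klf2, another flow-responsive factor of endothelium (8.42, 9.18, 8.61, 8.80 and 9.27 against 9.19, 9.19, 9.25, 9.67 and 9.37; -0.48 ± 0.15), and Klf6 (-0.52 ± 0.17). Placebo replicate 33 was high here. Atf3 stood at 9.56 in that array against 7.20 to 7.91 in the other placebo arrays and 6.80 to 7.37 with estradiol, and Fos at 7.92 against 6.83 to 7.34 and 6.54 to 7.16. The mean level of the list, relative to the mean of the 10 arrays, was 0.48 in placebo replicate 33 and -0.43 in estradiol replicate 33, and -0.12 to 0.13 in the other 8.

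Heat shock chaperones lay below placebo in 18 of 19 cases, with a median of -0.19, and 6 had an unadjusted limma p under 0.05 (all genes, 7.23%). That count was 2 without estradiol replicate 33 (17 below; all genes, 2.36%) and 3 without placebo replicate 34 (all genes, 7.42%). The median was -0.09 under quantile normalization, with 15 below, and -0.08 with the beta-titled arrays added to the control. Hspa1b, an inducible chaperone, had the largest difference of all tested genes, -1.10 ± 0.50, but its placebo levels were 6.90, 7.06, 7.09, 8.99 and 10.31 against 6.98, 6.88, 6.67, 7.32 and 7.03, so that it rested on placebo replicates 34 and 36. Dnajb1, a partner of this chaperone, was spread likewise (8.91, 8.77, 9.38, 9.81 and 10.09 against 8.71, 8.84, 8.49, 9.15 and 8.88). Hsp90aa1 ran at 11.40, 11.41, 11.16, 11.20 and 10.86 against 11.72, 11.63, 11.87, 11.70 and 11.61, a difference of -0.50 ± 0.15 that was -0.49 ± 0.16 without replicate 33. Dnaja1 did not overlap either, with 9.53 to 10.13 against 10.26 to 10.52. Of 4 other probe sets of Hsp90aa1, 2 shared its sign.

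Glucocorticoid-responsive genes lay below placebo in 16 of 18 cases with a median of -0.24, and in 13 of 18 with a median of -0.12 without estradiol replicate 33, whose mean level for this list was -0.55 against -0.13 to 0.08 in the other estradiol arrays. At an unadjusted limma p under 0.05, 4 lay below (all genes, 7.23%), 2 without that array (2.36%) and 7 without estradiol replicate 34 or 35 (6.12% and 5.89%). With the beta-titled arrays added to the control, 1 lay below (all genes, 3.77%) and 1 above (2.82%). The 4 were led by Cdkn1a, a brake on the cell cycle (9.38 to 10.06 with estradiol against 9.98 to 10.86 with placebo; -0.61 ± 0.19). Dusp1, a phosphatase of MAP kinases, differed by -0.40 ± 0.16 and Ddit4, an inhibitor of mTOR, by -0.35 ± 0.15. The other was Pdk4, and both Pdk4 and Dusp1 are members of another list above. Amino acid transport and the integrated stress response gave 5 above and 8 below with a median of -0.02, and 9 above and 4 below with a median of 0.02 without estradiol replicate 33. Atf4, its transcription factor, lay at -0.32 ± 0.13 and Chac1, a target of Atf4, at 0.54 ± 0.20, in opposite directions.

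**Figure D3:**
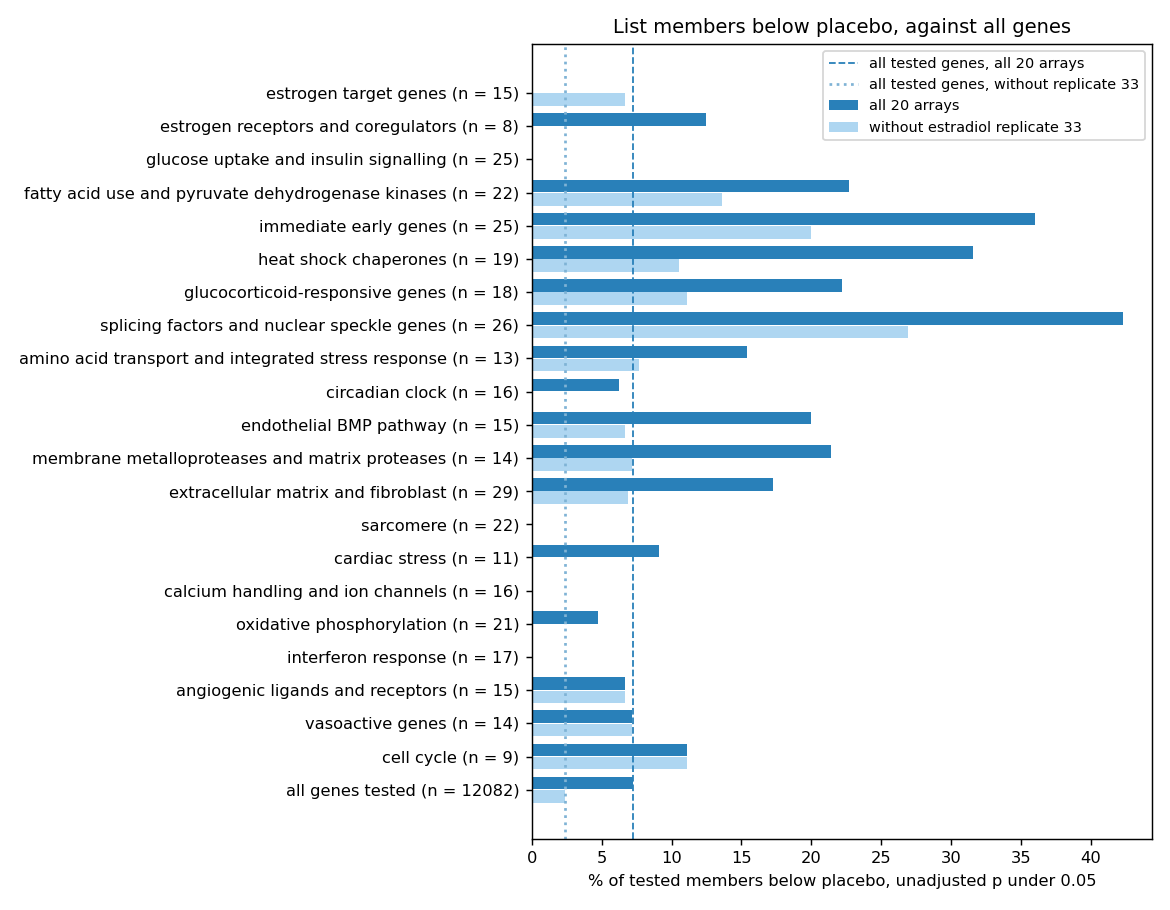
Share of the tested members of each gene list (rows, with the number of tested members) that lay below placebo at an unadjusted limma p under 0.05 (horizontal axis, percent), with all 20 arrays (dark bars) and without estradiol replicate 33 (light bars). The dashed and dotted lines mark the same shares over all tested genes, 7.23% and 2.36%. For the splicing factors, at 11 and 7 of 26, both bars reach past the line for all genes. The lists were drawn up with earlier results of these data known, so such an excess may follow in part from that choice.

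Genes of the endothelial BMP pathway lay below placebo in 14 of 15 cases, with a median of -0.14, and in 11 of 15 without estradiol replicate 33, with a median of -0.07. At an unadjusted limma p under 0.05 there were 3 (Tmem100, Id1 and Id3; all genes, 7.23%), 1 without that array (2.36%), 6 without estradiol replicate 30 (11.7%), 1 under quantile normalization (5.05%) and 1 with the beta-titled arrays added to the control (3.77%). Id1, a target of BMP signals that blocks bHLH factors, ran at 10.27, 10.17, 9.71, 10.30 and 10.75 against 10.48, 10.92, 10.75, 10.46 and 10.80, a difference of -0.44 ± 0.18. The general endothelial markers gave 6 above and 13 below placebo, median -0.10. They were not of one direction: Vwf, the von Willebrand factor, lay 0.49 ± 0.16 above placebo (8.87, 9.55, 9.10, 9.78 and 9.62 against 8.84, 9.22, 8.75, 8.73 and 8.94), whereas Tek, the angiopoietin receptor, lay 0.41 ± 0.14 below and Cldn5, a tight junction protein, at -0.68 ± 0.27 with wide overlap. The mean level of the endothelial list was -0.28 to 0.14 with estradiol and -0.01 to 0.15 with placebo, with replicate 33 the lowest. In bulk tissue, fewer cells of a type and less RNA per cell cannot be told apart. Adm, the vasodilator peptide adrenomedullin, lay 0.30 ± 0.13 above placebo.

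Matrix and fibroblast genes were split, 15 above and 14 below placebo, with a median of 0.01. At an unadjusted limma p under 0.05, 5 lay below (all genes, 7.23%) and 1 above (2.39%). The count below was 2 without estradiol replicate 33 (all genes, 2.36%) or placebo replicate 31 (5.12%), 1 without placebo replicate 33 (3.53%), 9 without placebo replicate 34 (7.42%) and 10 without placebo replicate 36 (10.2%). With the beta-titled arrays added to the control, 8 lay below (all genes, 3.77%) and 0 above (2.82%). Without placebo replicate 34 the split was 9 above and 20 below, with a median of -0.15. Sparc, a collagen-binding glycoprotein, ran at 11.44, 11.55, 11.27, 11.47 and 11.57 with estradiol against 11.86, 11.81, 12.08, 11.74 and 11.74, a difference of -0.38 ± 0.11 without overlap, though 1 of its other probe sets had the opposite sign at 0.09. Smoc2 (-0.33), Fstl1 (-0.32), Col5a2 (-0.30) and Postn (periostin; -0.44) completed the 5, and Col15a1 lay 0.17 ± 0.07 above. Membrane and matrix proteases gave 3 above and 11 below, with Adamts9, Adam10 (-0.30) and Adam9 (-0.23) below and Bace2 above at an unadjusted p under 0.05 (all genes, 7.23% below and 2.39% above). The count below was 1 without estradiol replicate 33 (2.36%) and 5 without placebo replicate 34 (7.42%).

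Contractile genes differed little. Of 22 sarcomere genes 14 lay above placebo, and 9 without estradiol replicate 33. Only Tnni1, the slow skeletal troponin I, had an unadjusted limma p under 0.05, at 0.13 ± 0.06 (all genes, 2.39% above). No member had one without estradiol replicate 34 or 35 or placebo replicate 31, 32 or 33. Myh6, the α myosin heavy chain, differed by 0.07 (95% interval -0.16 to 0.29) and Myh7, the β chain, by 0.18 (-0.28 to 0.63). The natriuretic peptides Nppa and Nppb differed by 0.10 (-0.29 to 0.49) and 0.07 (-0.29 to 0.43). Of 16 genes of calcium handling and ion channels, 10 lay above placebo, and 2 of these had an unadjusted p under 0.05 (all genes, 2.39% above). Without estradiol replicate 33, 8 lay above and 8 below, and without estradiol replicate 34 none had an unadjusted limma p under 0.05. Kcnip2, the β subunit of the transient outward potassium current, ran at 10.12, 10.59, 10.25, 10.79 and 10.55 against 9.93, 10.27, 10.14, 10.32 and 10.09, a difference of 0.31 ± 0.12, and Kcnq1, of the slow delayed rectifier, differed by 0.25 ± 0.11. Of 2 other probe sets of Kcnip2, 1 shared its sign. Oxidative phosphorylation gave 5 of 21 above placebo, and 15 of 21 under quantile normalization, with medians of -0.03 and 0.02.

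Several clock genes ranged more widely over the estradiol arrays than over the placebo arrays. These are the genes of the daily oscillator, in which Arntl and Clock drive the transcription of Dbp, Tef and Hlf. Dbp ran at 7.60, 8.89, 9.73, 10.76 and 10.42 in estradiol replicates 29, 30, 33, 34 and 35, a range of 3.15, and at 9.06, 9.57, 8.29, 9.46 and 9.51 in placebo, a range of 1.27. Arntl ran the other way, with 8.19, 7.88, 7.03, 6.58 and 6.66 against 7.49, 7.15, 8.58, 7.63 and 6.97, a range of 1.61 in both groups. Tef was high in estradiol replicates 34 and 35 (10.57 and 10.55) and lower in 29, 30 and 33 (9.28 to 9.47), with 9.58 to 10.05 in placebo. Ciart had a range of 1.71 with estradiol and 0.43 with placebo, and Hlf 1.18 and 0.51. Clock (0.85 and 0.98) and Nfil3 (0.95 and 1.16) ranged more widely in placebo. Between the groups 8 of 16 clock genes lay above and 8 below placebo, and without estradiol replicate 34 only 2 lay above. Clock alone had an unadjusted limma p under 0.05, at -0.39 ± 0.18 (all genes, 7.23% below). No member had one without estradiol replicate 33 or placebo replicate 33 or 34, or under quantile normalization. Without estradiol replicate 29, 3 lay above and 2 below at that p (all genes, 3.99% and 11.5%). The Pdk4 levels were highest in the estradiol arrays with the lowest Dbp, 29 and 30. The time of day at sampling is not given in the labels used here, and its part in these values was not tested.

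**Figure D4:**
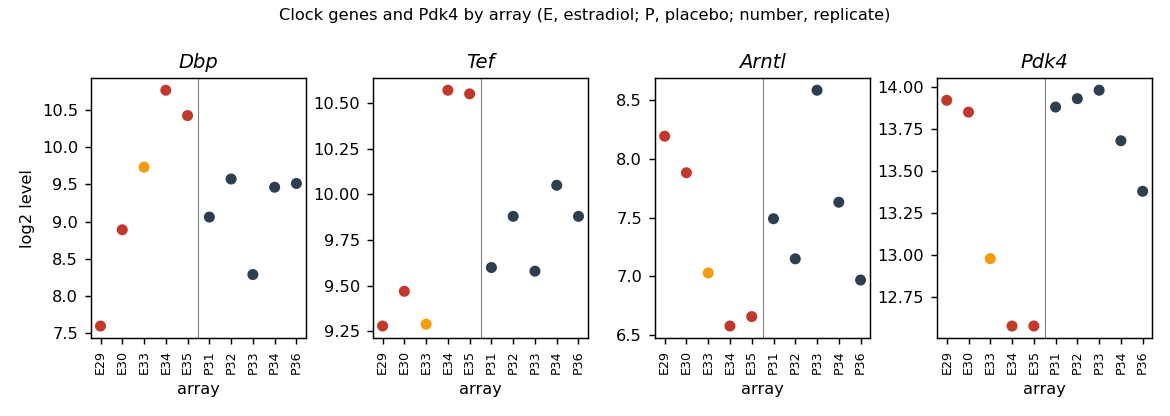
Log2 levels (vertical axes, each on its own scale) of Dbp, Tef, Arntl and Pdk4 in the 5 estradiol arrays (E, red, with replicate 33 in orange) and the 5 placebo arrays (P, dark), by replicate number. Estradiol replicates 34 and 35 are highest for Dbp and Tef and lowest for Arntl and Pdk4. Among the estradiol arrays alone, replicate 29 is lowest for Dbp and Tef and highest for Arntl and Pdk4.

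Single arrays also carried genes of other kinds. Placebo replicate 36 had a mean level of 1.28 for the interferon response genes, against -0.34 to 0.05 in the other placebo arrays and -0.32 to 0.06 with estradiol, and Igtp, an interferon-induced GTPase, stood at 12.56 there against 8.46 to 8.72. Of 17 such genes, 15 lay below placebo with all arrays and 5 without placebo replicate 36, and 0 had an unadjusted p under 0.05 in the fit of all arrays. Estradiol replicate 35 had a mean level of 1.03 for the 7 tested atrial markers, against -0.30 to 0.06 in the other estradiol arrays and -0.50 to 0.28 in placebo. Sln, which encodes sarcolipin of the atrium, stood at 10.83 there against 7.17 to 8.19, and Myl7, the atrial light chain, at 11.40 against 8.58 to 9.79, and both were at 7.10 or more in every array. The part of these markers in the results was not tested. All 5 neutrophil markers tested lay above placebo, with a list level of -0.05 to 0.37 against -0.48 to 0.20, and S100a8 at 0.64 ± 0.39. The macrophage list gave 7 above and 8 below, but 8 and 7 without estradiol replicate 33, 3 and 12 without estradiol replicate 35, 2 and 13 without placebo replicate 34, and 13 and 2 without placebo replicate 36. The cardiomyocyte list gave 7 above and 3 below, and 3 above and 7 below without estradiol replicate 33 or placebo replicate 36.

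**Figure D5:**
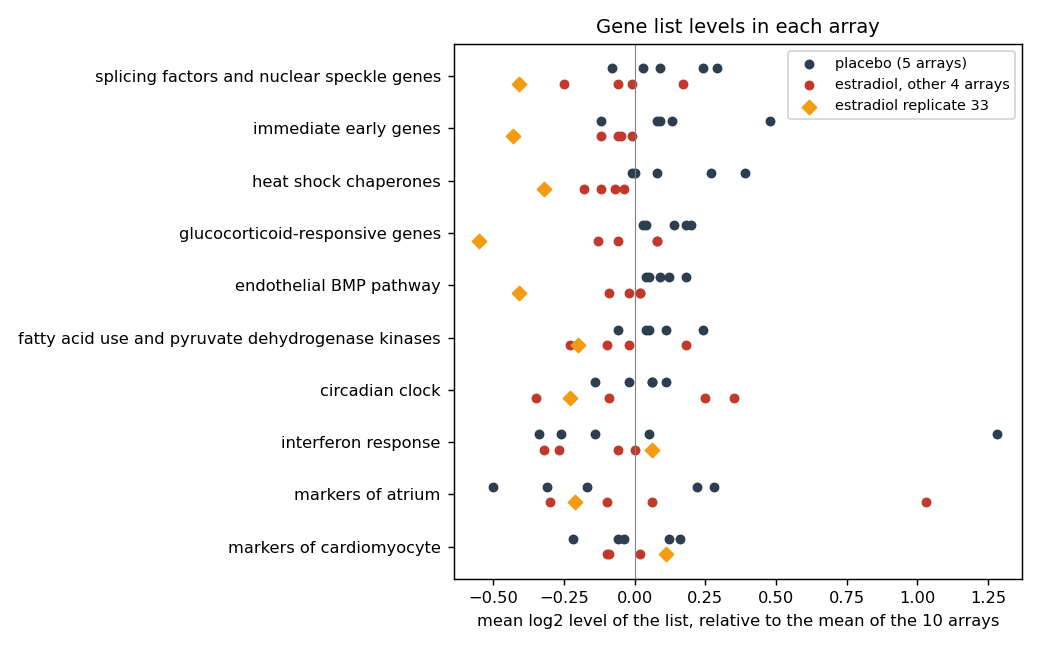
Mean log2 level of 10 gene lists (rows) in each array, relative to the mean of the 10 arrays (horizontal axis). Dark points are placebo arrays, red points estradiol arrays and orange diamonds estradiol replicate 33, which is lowest for the splicing, immediate early, heat shock, glucocorticoid and endothelial BMP lists; the points far to the right are placebo replicate 36 (interferon, 1.28) and estradiol replicate 35 (atrium, 1.03).

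Against the median of the other 4 estradiol arrays, estradiol replicate 33 lay more than 1 above in 173 genes and more than 1 below in 10. Among those farthest above were Arfgef3 (10.35 against 8.85 to 9.12 in the other estradiol arrays) and Sstr3, a somatostatin receptor (10.94 against 9.46 to 9.59), and farthest below was Vapb (7.66 against 9.14 to 9.76). Without this array the differences from placebo of Arfgef3, Sstr3 and Vapb were -0.04, -0.07 and 0.17, each of the opposite sign to the values with it (0.24, 0.21 and -0.19). Such changes follow in large part from choosing these genes by their distance in this array.

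Estradiol was also set against the other treated arrays for the named genes, in the same fit of all 20 arrays, at the same duration and with doses not given in the labels used here. All of these comparisons share arrays, so they are not independent of those with placebo. Ptgds differed from 16α-LE2 by 0.02 (95% interval -0.25 to 0.28) and from the beta-titled group by 0.69 ± 0.13 (limma adjusted p = 0.213). Slc2a1 differed from 16α-LE2 by -0.14 (-0.35 to 0.06). The 1 named gene past the threshold was Col14a1, a fibril-associated collagen, which was 0.64 ± 0.11 higher with estradiol than with 16α-LE2 (limma adjusted p = 0.027). It ran at 7.32, 7.46, 7.49, 7.66 and 7.97 with estradiol and 7.54, 7.37, 7.81, 7.19 and 7.69 with placebo, and was chosen for naming after its values were seen. Sparc (0.61 ± 0.11) and Myh7 (-1.17 ± 0.22), also as estradiol minus 16α-LE2, did not pass the threshold, with a limma adjusted p of 0.0507.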

How the data were processed

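Values of 45101 probe sets on 20 arrays were used as deposited, on a log2 scale; that the deposited unit is log2 was read from their range of 5.07 to 15.31. Per the labels' protocols, 100 ng of total RNA was amplified to biotinylated cRNA. How they were summarized and normalized is not given in the sources used here. After removal of 64 control probe sets, 34945 named exactly 1 symbol, 932 several and 9160 none in the platform annotation; 34741 of the 34945 gene IDs matched the RefSeq gene table (GRCm38.p6). Samples were grouped by title.

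All arrays were fitted with limma 3.58.1 in R 4.3.3 (a mean for each group, and eBayes with a trend on intensity), and p-values were Benjamini-Hochberg adjusted over 12082 genes. On simulated data for estradiol against placebo, with 200 of 12082 genes changed, 57% of changes of 0.4 and 94.9% of changes of 0.8 were recovered over 10 runs, with 5.63% false calls.

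Genes were named by a rule: the 12 of smallest p in each direction, 6 in each direction without estradiol replicate 33, up to 4 of smallest p in each of 35 lists, genes farthest in that replicate, and Slc2a1, Slc2a4, Esr1, Esr2, Gper1, Pgr, Greb1, Ptgds, Myh6, Myh7, Nppa, Nppb and Pdk4. Not all such genes are printed. Other splicing and clock genes, Col14a1, Igtp, Sln and Myl7 were named after their values were seen. The comparison, lists and rules were chosen with earlier results of these data known. Alternatives covered the filter, probe set summary, scaling, array weights, arrays fitted, replicate block, pooled controls, threshold, trend and each array left out.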

Additional observations from a re-analysis of the deposited data

Results flagged for a closer look

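Some arrays lay far from the other 4 of their group, by the size of the gap to the nearest of them. For genes not chosen by their values, chance would set apart about 1 in 20 groups so tested. Some genes here were chosen by their values, so that rate does not hold for them. Arfgef3 and Sstr3 were among those farthest in estradiol replicate 33, and Igtp and Sln were named after their values were seen. Estradiol replicate 33 lay far out for Arfgef3 (10.35), Sstr3 (10.94), Mutyh (7.71) and Pgr (7.13) on the high side. On the low side it did so for Meig1 (6.47), Srsf10 (7.75) and Plin5 (10.99). Among the estradiol arrays it also had the lowest mean level, relative to the 10 arrays, of the immediate early genes (-0.43), the endothelial BMP pathway (-0.41), the vasoactive genes (-0.25) and the extracellular matrix genes (-0.20).

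Estradiol replicate 30 was above the other estradiol arrays for Tmem100 (9.18) and Sfpq (8.71), toward the placebo level. Estradiol replicate 35 was above them for Sln (10.83), for the atrial markers (1.03) and for the macrophage markers (0.27). Placebo replicate 36 was above the other placebo arrays for Igtp (12.56) and the interferon response genes (1.28). Placebo replicate 33 was above them for Tra2b (10.61) and below them for Arfgef3 (8.88) and Esr2 (6.43). Placebo replicate 34 stood out for the red blood cell markers (0.21) and placebo replicate 32 for the sarcomere genes (0.16).

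Col14a1 differed between estradiol and 16α-LE2 by 0.64 (limma adjusted p = 0.027).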

How the results depend on the processing

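With 5 arrays a group, the median interval half-width was 0.21, not widened for the number of genes. It is therefore not the detection limit of the adjusted test. In the simulated data, with independent genes and no outlying array, 57% of changes of 0.4 were recovered, so differences well above 0.21 may have been missed. The share recovered in the real arrays is not known. The count of called genes (0 as reported) was 0 under the filter, probe set, scaling, weight, trend and pooled-control alternatives, in the fits of fewer arrays and at an adjusted p under 0.10, and ran from 0 to 1 with 1 array left out, 1 only without 16α-LE2 replicate 29 (Tmem100). The 1163 genes of unadjusted limma p under 0.05 became 696 with array weights, 672 in a fit of the 10 arrays, 547 in that fit without estradiol replicate 33, 678 with quantile normalization without that array (an alternative chosen after seeing the data), and 598 to 2228 with 1 array left out; without the filter 1544 of all genes passed. With the replicate number as a block the count was 1858; same-numbered arrays of different groups correlated at -0.346 to 0.509 in their deviations from the group means, so the numbers were not taken as pairs. The 106 genes without overlap became 3 with beta-titled arrays added to placebo and 148 to 312 with 1 array left out. Of 102 named genes, 16 changed sign under some setting. With the replicate block the differences became -0.03 for Slc2a4, -0.02 for Myh7, -0.06 for Nppa, -0.26 for Myl7 and -0.31 for Sln. With beta-titled arrays added to placebo they became -0.05 for Myh7, Tef and Hlf and 0.04 for Arntl, with median centring -0.01 for Slc2a4, and with the mean of probe sets 0.01 for Vapb and -0.01 for Tef. Array weights gave -0.01 for Nppb and Arfgef3, -0.06 for Sstr3 and 0.25 for Vapb. In the fits of estradiol and placebo only and without the filter, both without replicate 33, Vapb stood at 0.17, Arfgef3 at -0.04 and Sstr3 at -0.07, and with quantile normalization without it Vapb at 0.21 and Sstr3 at -0.02. With 1 array left out, differences ran from -0.08 to 0.06 for Slc2a4, -0.02 to 0.13 for Myh6, -0.04 to 0.20 for Nppb, -0.02 to 0.77 for Dbp, -0.15 to 0.18 for Tef, -0.03 to 0.14 for Col14a1, -0.83 to 0.19 for Igtp, -0.01 to 0.69 for Myl7, -0.25 to 0.66 for Sln, -0.36 to 0.17 for Vapb, -0.04 to 0.33 for Arfgef3 and -0.07 to 0.30 for Sstr3. Apart from changes that follow from fewer arrays, the cause was not tested. Of 1056 alternative list medians, 5 moved by more than 1 SD of the list level between replicates.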

Other observations

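Other gene groups differed little between estradiol and placebo. Of 9 cell cycle genes tested 6 lay above placebo, of 15 angiogenic ligands and receptors 5, of 14 vasoactive genes 6 and of 11 cardiac stress genes 5, with medians of -0.06 to 0.01. Fhl1, a LIM protein of the stretched sarcomere, lay 0.27 ± 0.13 below placebo, with 11.11, 11.25, 10.96, 11.43 and 11.46 in estradiol replicates 29, 30, 33, 34 and 35 against 11.46, 11.58, 11.54, 11.41 and 11.59 in placebo replicates 31, 32, 33, 34 and 36. The groups overlapped through estradiol replicates 34 and 35. Tfam, which packs and transcribes mitochondrial DNA, lay 0.30 ± 0.12 below, while the structural genes of oxidative phosphorylation listed with it had a median of -0.03.

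Markers of smooth muscle and pericytes gave 8 of 12 above placebo, with a median of 0.02, and 5, 4 and 5 of 12 without estradiol replicate 30, estradiol replicate 34 and placebo replicate 33. Tagln, an actin-binding protein of smooth muscle, ran at 9.64, 9.73, 9.63, 9.80 and 9.67 with estradiol and 9.46, 9.43, 9.71, 9.50 and 9.32 with placebo, so that placebo replicate 33 alone lay among the estradiol arrays. Its difference was 0.21 ± 0.10. Gadd45g, a stress-induced gene listed with the glucocorticoid targets, was the member with the smallest p above placebo, at 0.21 ± 0.11 (limma adjusted p = 0.499). None of these genes was called.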
